A study of Homo sapiens with 42 samples.

Results

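Peak and dip loops are the chromatin loops of K562 cells whose contact count stood apart at 6 h of treatment with PMA. A loop was taken as a peak when its scaled count in each of the 4 libraries of 6 h lay above that in each of the 8 libraries of 0 h and 72 h, and as a dip when it lay below all 8. Of 33914 deposited loops, 22795 had a mean raw count of 10 or more per library and were kept, and 11119 were put aside. The rule found 363 peaks (1.59% of the kept loops) and 137 dips (0.601%), 500 loops in all. If the 12 libraries were exchangeable, 46.1 peaks and 46.1 dips would be expected, so the peaks were 7.88 times and the dips 2.97 times that number. The members were thus selected on the measured counts, and every contrast of 6 h with the other times is given for them as a description.

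A chromatin loop is a pair of distant DNA segments, its anchors, that meet in the nucleus more often than the segments around them. Many loops are held by the ring complex cohesin, which reels in DNA until it meets the DNA-binding protein CTCF, and others join promoters to enhancers. PMA (phorbol 12-myristate 13-acetate) activates protein kinase C and, downstream of it, the MAPK cascade, which within hours induces immediate early genes such as those of the EGR and FOS families, and K562, an established human leukemia line that can express erythroid genes, then takes on features of megakaryocytes.

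The study used in situ Hi-C, which ligates neighbouring DNA fragments of crosslinked nuclei and sequences the joined pieces. Wild-type K562 cells were given 25 nM PMA for 0 h, 6 h or 72 h, and the 0 h libraries are the only ones without exposure, so time in culture and PMA cannot be told apart. Each time point had 4 biological replicates; replicates 1 and 2 had 3 technical replicates each, and replicates 3 and 4 had 2, and technical replicates were summed into 12 libraries. Contact counts hold no expression, so the cell line label cannot be checked with marker genes here.

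The 12 libraries held between 736929 and 1472197 contacts over all loops, of which 93.6% to 95.9% lay in kept loops. Replicates 3 and 4 did not differ detectably beyond the sampling noise of their counts at 0 h (chi-square per degree of freedom 1.01, p = 0.155) and at 72 h (1.001, p = 0.438), whereas at 6 h the value was 1.016 with a chi-square p of 0.049. At 0 h and 72 h these libraries were therefore counted as 1 sample in every mean ± SD, which has n = 3 at 0 h and 72 h and n = 4 at 6 h. The other pairs of replicates at 6 h gave 1.092 to 1.274, so replicates 3 and 4 were the closest pair there too. Each SD at 6 h still counts them apart. The rule itself counts them as 2 libraries. So does edgeR in each SE and p-value printed, also in fits of replicates 3 and 4 alone. Under the rule, summing them at 0 h and 72 h gave 595 peaks and 252 dips where 108.5 of each would be expected. The labels call the replicates biological and give no further origin, so p-values measure the spread between these libraries. A scaled count is the number of contacts after each library was set to 1000000 contacts over the kept loops. A lower count can mean that fewer cells had a contact or that cells had it less often, and these cannot be told apart in bulk cells.

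Promoters in the anchors of members described below are printed here, so that the loops can be tied to sequence. Sequences are from RefSeq on GRCh38.p14, the assembly of the build hg38 named for the contacts, and each gives the 250 bases before the gene's start, 5′ to 3′ on the gene's strand. Capitals mark every match on either strand to TGANTCA (the word of AP-1), AGATAA (of the GATA family), CCGGAAGT (of the ETS family), GGGCGG (of the SP and KLF families), GCGTGGGCG (of the EGR family) or the core of the CTCF motif. The EGR and SP/KLF words can overlap. The promoter of ZNF544, a zinc finger protein, lies at chr19:58228664-58228913 on the plus strand in an anchor of a peak and holds none of these words. The promoter of ATG9B, an autophagy protein, lies at chr7:151024500-151024749 on the minus strand in an anchor of a peak and holds 1 AP-1 and 2 GATA words. At dips stand the promoters of CITED2, a transcription coregulator, at chr6:139374649-139374898 on the minus strand, of CLCA2, a chloride channel accessory protein, at chr1:86423921-86424170 on the plus strand with 1 AP-1 word, of BTG1, an inhibitor of proliferation, at chr12:92145847-92146096 on the minus strand, and of PHLDA1, a gene induced by growth factor signalling, at chr12:76031777-76032026 on the minus strand.
ZNF544: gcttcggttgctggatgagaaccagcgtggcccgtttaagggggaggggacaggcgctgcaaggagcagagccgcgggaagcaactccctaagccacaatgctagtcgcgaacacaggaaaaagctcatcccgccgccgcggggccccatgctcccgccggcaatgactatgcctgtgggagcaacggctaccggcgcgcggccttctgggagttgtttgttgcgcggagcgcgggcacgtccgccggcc
ATG9B: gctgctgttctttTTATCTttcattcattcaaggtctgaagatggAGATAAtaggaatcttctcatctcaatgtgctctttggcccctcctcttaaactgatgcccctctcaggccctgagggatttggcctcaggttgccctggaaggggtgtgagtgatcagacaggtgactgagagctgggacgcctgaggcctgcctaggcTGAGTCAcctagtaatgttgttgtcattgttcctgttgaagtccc
CITED2: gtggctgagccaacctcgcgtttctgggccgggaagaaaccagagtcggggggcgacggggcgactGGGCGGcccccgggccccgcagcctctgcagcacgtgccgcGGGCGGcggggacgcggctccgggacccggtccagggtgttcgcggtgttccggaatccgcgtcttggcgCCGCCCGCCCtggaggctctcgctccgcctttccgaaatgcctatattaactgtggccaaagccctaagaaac
CLCA2: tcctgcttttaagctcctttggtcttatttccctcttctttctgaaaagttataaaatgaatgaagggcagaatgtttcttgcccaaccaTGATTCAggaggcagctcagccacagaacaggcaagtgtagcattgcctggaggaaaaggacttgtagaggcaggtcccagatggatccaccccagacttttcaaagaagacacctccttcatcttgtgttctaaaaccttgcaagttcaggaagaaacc
BTG1: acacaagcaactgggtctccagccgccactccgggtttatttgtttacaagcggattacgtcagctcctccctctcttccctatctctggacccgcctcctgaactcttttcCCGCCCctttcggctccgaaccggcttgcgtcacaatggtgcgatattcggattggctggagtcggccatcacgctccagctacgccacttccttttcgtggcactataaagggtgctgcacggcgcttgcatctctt
PHLDA1: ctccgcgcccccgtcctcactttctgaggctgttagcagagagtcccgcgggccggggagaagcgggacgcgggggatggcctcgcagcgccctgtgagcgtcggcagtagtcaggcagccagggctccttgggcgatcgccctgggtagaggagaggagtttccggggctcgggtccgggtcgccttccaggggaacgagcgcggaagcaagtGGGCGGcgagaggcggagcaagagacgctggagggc

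Across all promoters with a gene start in an anchor, these words were counted beside those of other loops. Promoters were matched by coordinates over 300 bases, 250 before to 50 after the start, for 129 promoters of 109 genes at peaks, 60 promoters of 48 genes at dips and 4779 at all kept loops, out of 22198 in the table. The AP-1 word stood in 4.65% of promoters at peaks, 6.67% at dips, 5.36% at all kept loops and 6.15% of the whole table. The SP/KLF word stood in 62.8%, 68.3%, 61.8% and 56.3% of the same sets. The GATA word stood in 7.75%, 10%, 7.3% and 7.91%, and the ETS word in 6.2%, 1.67%, 5.82% and 5.33%. The EGR word stood in 0.775% at peaks and 1.67% at dips, 1 promoter each, beside 1.11% at kept loops and 1.05% of the table. The CTCF core stood in 8.53%, 6.67%, 8.16% and 7.61%. The members' shares lay on both sides of the others, none was tested, and those of the dips rest on 60 promoters.

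Peaks and dips were the smallest of the classes that this kind of rule gives. The same rule found 672 loops with 0 h above the other 8 libraries and 621 with 0 h below, and 1774 with 72 h above and 943 with 72 h below. Peaks outnumbered dips, and the loops apart at 72 h outnumbered both. The counts depend on how many libraries must agree: without replicate 1, 2, 3 or 4 of 6 h, the rule gave 591, 528, 600 or 629 peaks and 242, 297, 237 or 246 dips, where 138.2 of each would be expected.

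**Figure D1:**
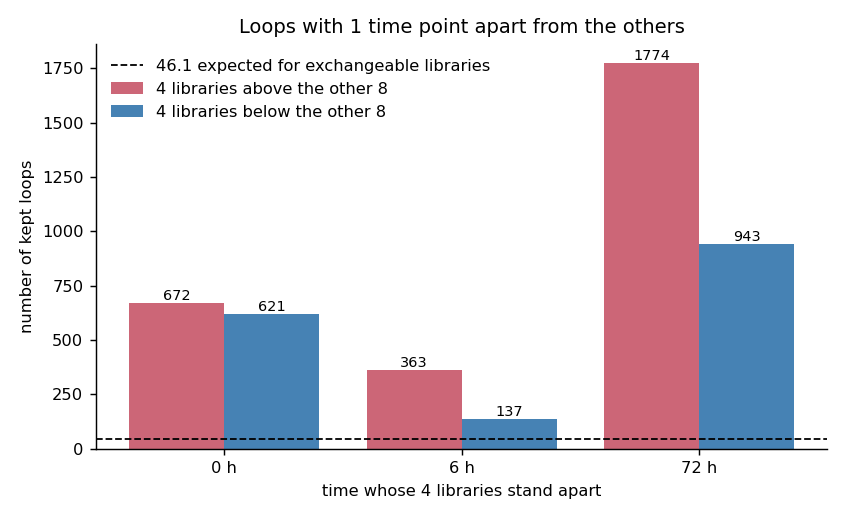
Number of kept loops (y axis) in which all 4 libraries of one time point (x axis: 0 h, 6 h, 72 h) lay above (red) or below (blue) the 8 libraries of the other times; the dashed line is the 46.1 loops expected for exchangeable libraries. The 363 peaks and 137 dips at 6 h are the lowest bars of each colour, and all 6 bars stand above the line.

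The peaks together took 1.32% to 1.35% of contacts in the 4 libraries of 0 h, 1.83% to 1.87% at 6 h and 1.2% to 1.3% at 72 h. The dips took 0.781% to 0.816% at 0 h, 0.583% to 0.598% at 6 h and 0.792% to 0.832% at 72 h. The rule fixes the place of 6 h in these ranges but not the order of 0 h and 72 h, and in both classes the ranges of 6 h were narrow. In single libraries, peaks had a median scaled count of 27.7 to 29.3 at 0 h, 39.9 to 41.9 at 6 h and 24.3 to 26.9 at 72 h. Dips had a median of 41.9 to 49.1 at 0 h, 29 to 31.4 at 6 h and 49.9 to 52.1 at 72 h. At 72 h the peaks' medians therefore lay below all those of 0 h, and the dips' medians lay above all those of 0 h.

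Log2 fold changes were fitted with edgeR over all kept loops. The median peak was 0.44 higher at 6 h than at 0 h and fell by 0.56 from 6 h to 72 h. Against the mean of 0 h and 72 h, the peaks' difference at 6 h had a median of 0.52 and ran from 0.18 to 1.21. The median dip was -0.46 at 6 h against 0 h and 0.49 at 72 h against 6 h, and its difference from the mean of 0 h and 72 h had a median of -0.49, between -1.18 and -0.16. The rule sets the direction of these values.

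Most members stood only a little apart. The gap between the nearest libraries, the lowest of 6 h over the highest of the others for a peak and the reverse for a dip, had a median of 1.06-fold in peaks and 1.05-fold in dips. It was under 1.1-fold in 250 peaks (68.9%) and 105 dips (76.6%), and at least 1.2-fold in 33 peaks and 9 dips. The largest gaps were 1.49-fold in peaks and 1.37-fold in dips. At the edge of the rule, loop29715 entered the peaks with a lowest 6 h value of 81.02 beside 81.01 elsewhere, and loop3732 stayed out with 85.9 beside 85.91. Among dips, loop12453 entered with a highest 6 h value of 63.88 beside 63.89, and loop16842 stayed out with 111.5 beside 111.45.

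Depth limits each single loop. Counts were low in many members, with a mean raw count under 20 in 104 peaks (28.7%) and 25 dips (18.2%). A raw count of 31, near the peaks' median of 30.8, may stand for a true mean between 21.1 and 44 (exact Poisson, 95%). A count of 42, near the dips' median of 42.1, may stand for one between 30.3 and 56.8, and both ranges cover counting error only. A pattern over 12 libraries rests on more contacts than any single value.

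The edgeR calls at an adjusted p under 0.05 describe how strongly members stood out in contrasts that the rule used. Of the peaks, 120 were called higher at 6 h than at 0 h, a call that 2.67% of all kept loops had, and 269 were called lower at 72 h than at 6 h (10.1% of kept loops). Against the mean of 0 h and 72 h, 243 peaks were called higher (3.32% of kept loops), and 92 were called in both steps (0.64% of kept loops). Of the dips, 62 were called lower at 6 h than at 0 h (4.19% of kept loops), 92 higher at 72 h than at 6 h (11.2%), 89 lower at 6 h than the mean of the other times (2.11%) and 45 in both steps (0.373%).

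Libraries that had no part in the choice were used to test whether the pattern recurs. Loops were chosen by the same rule in replicates 1 and 2 alone and then read in replicates 3 and 4, and the reverse. Of 2551 peaks chosen in replicates 1 and 2, 592 (23.2%, 95% Wilson interval 21.6 to 24.9%) were peaks in replicates 3 and 4, where 9.09% of all kept loops were. The opposite pattern, a dip, was shown by 2.51% of them, beside 7.94% of all kept loops. Of 1477 dips chosen in replicates 1 and 2, 241 (16.3%, 14.5 to 18.3%) were dips in replicates 3 and 4, beside 7.94% of all kept loops.

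Read in the other direction, the same 592 and 241 loops are set against other totals, so these shares are no further support. Of 2073 peaks chosen in replicates 3 and 4, 592 (28.6%, 26.7 to 30.5%) were peaks in replicates 1 and 2, beside 11.2% of all kept loops. Of 1811 dips chosen there, 241 (13.3%, 11.8 to 14.9%) were dips in replicates 1 and 2, beside 6.48%. Each pattern thus recurred more often than over all kept loops in this split of the 12 libraries. The intervals count loops and do not measure the spread between replicates. Replicates 3 and 4 did not differ detectably at 0 h and 72 h, so that pair may add little beyond a single sample. Most loops chosen in one pair of replicates did not show the pattern in the other pair. Loops that share an anchor are not independent, so the intervals cover counting error only.

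The size of the difference shrank in the libraries that had not chosen it. The median log2 difference of 6 h from the mean of 0 h and 72 h was 0.20 for peaks in either direction and -0.14 for dips in either direction, beside medians of 0 and -0.01 over all kept loops. In replicates 3 and 4, edgeR called 33 of the 2551 peaks higher (1.29%, against 0.303% of all kept loops) and 10 of the 1477 dips lower (0.677%, against 0.175%). In replicates 1 and 2 it called 113 of 2073 peaks higher (5.45%, against 1.43%) and 53 of 1811 dips lower (2.93%, against 0.834%). A single dip chosen in replicates 3 and 4 was called in the opposite direction in replicates 1 and 2, and no other chosen loop was. The difference between both pairs of replicates in this contrast was called in none of the 22795 kept loops by edgeR, with 1378 (6.05%) at an unadjusted p under 0.05. Each pair holds few libraries per time, so differences could be missed and the lack of calls does not show that the pairs agree.

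**Figure D2:**
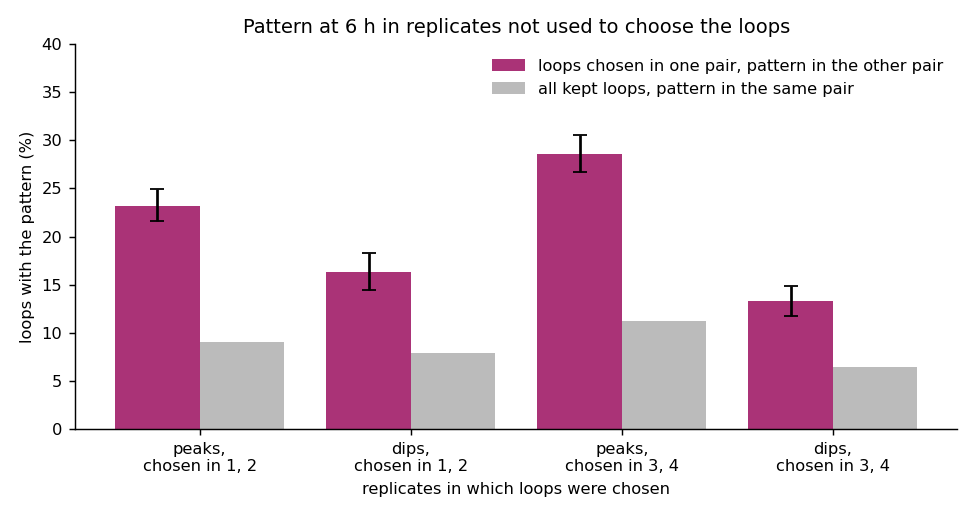
Share of loops (y axis, %) that showed the 6 h pattern in the pair of replicates that did not choose them (purple, with 95% Wilson intervals) and share of all kept loops with that pattern in the same pair (grey). On the x axis are peaks and dips by the pair that chose them; the purple bars run from 13.3% to 28.6%, each above its grey bar at 6.48% to 11.2%.

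The rule sets no order between 0 h and 72 h, so that comparison asks whether members came back to where they began. Of the 363 peaks, 4 were higher and 42 lower at 72 h than at 0 h by edgeR at an adjusted p under 0.05, while 17.4% of all kept loops were higher and 17.2% lower. Of the 137 dips, 6 were higher and 7 lower. The median log2 difference was -0.11 in peaks and 0.03 in dips. Since both times must lie on one side of 6 h, the rule bounds how far they can be apart, and the low counts are not evidence of a return to the starting level. The 42 lower peaks became 67 when each library's trend with loop length was removed, while the 3917 kept loops called lower became 4477. In replicates 3 and 4 alone 10 peaks and 2085 kept loops were called lower. DESeq2 called 2 peaks higher and 26 lower, beside 2345 and 2552 kept loops, and without replicate 1 of 0 h the dips called fell to 3 higher and 3 lower, beside 3110 and 3107 kept loops. Scaling by the total count gave 8 dips higher and 5 lower, beside 4500 and 3325 kept loops.

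Counted without a model, every library of 72 h lay below every library of 0 h in 43 peaks and above in 12, and the times overlapped in 308. Over all kept loops, 11.9% lay below and 16.6% above. Among dips, 72 h lay above in 13 and below in 6, and the times overlapped in 118. As shares, 11.8% of peaks lay below and 3.31% above, and 4.38% of dips lay below and 9.49% above. By edgeR, 11.6% of peaks were called lower, beside 17.2% of kept loops, so the nearness to the overall share depends on the measure. The rule bounds these shares too, and they are a description only.

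The 4 peaks that were higher at 72 h than at 0 h, named after their values were seen, are loop31907 on chromosome 20, loop15267 and loop13327 on chromosome 6 and loop27011 on chromosome 14. In loop31907 the 0 h libraries had a scaled count of 52.4 ± 5.0, those of 6 h 102 ± 9.4 and those of 72 h 72.5 ± 6.3. In loop27011 it was 22.8 ± 6.9, 47.0 ± 4.7 and 39.1 ± 1.5. These loops kept part of their gain, with log2 differences between 72 h and 0 h of 0.42 ± 0.13 (SE) and 0.62 ± 0.18. Of the 42 lower peaks, loop30196 on chromosome 18 went from 39.1 ± 1.8 to 48.9 ± 2.2 and then to 21.4 ± 2.3, a log2 difference of -0.83 ± 0.18 from 0 h to 72 h (edgeR adjusted p = 7.7e-05).

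The peaks with the largest gap, among those with a mean raw count of 20 or more, lay on 7 chromosomes, and 5 of the 8 had no protein-coding gene end in either anchor. Loop2794 joins chr1:207110001-207120000 to chr1:207700001-207710000, 590 kb apart. Its scaled counts were 19.2, 19.1, 13.5 and 18.0 at 0 h, 33.9, 33.2, 28.6 and 30.2 at 6 h, and 10.8, 10.4, 12.9 and 17.6 at 72 h. The lowest 6 h library stood 1.49-fold above the highest of the others, the largest gap of any peak, and 0 h and 72 h overlapped only through replicate 3 of 0 h and replicate 4 of 72 h. Loop2952, also on chromosome 1 and 250 kb long, gave 20.8 ± 0.65 at 0 h, 34.3 ± 3.7 at 6 h and 17.7 ± 1.8 at 72 h.

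A peak with genes at both ends joined ZNF544 at chr19:58220001-58230000 to SLC27A5, a bile acid ligase, and ZBTB45, a zinc finger protein, at chr19:58510001-58520000. Its scaled counts were 48.3, 49.7, 33.1 and 45.0 at 0 h, 75.9, 76.1, 84.3 and 83.4 at 6 h and 50.3, 55.0, 51.6 and 57.3 at 72 h. The gap was 1.32-fold, and all 72 h libraries lay between those of 0 h and 6 h, the lowest at 50.3 beside 49.7 at 0 h. The difference between 72 h and 0 h was 0.20 ± 0.14 in log2 and was not called (edgeR adjusted p = 0.28). The authors' deposited table classes this loop as gained.

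The peak with the highest count among these 8 was loop16526, from chr7:100960001-100970000, which holds the start of the mucin gene MUC12 and an end of MUC3A, to chr7:101290001-101300000. Its counts were 54.7, 71.6, 60.1 and 64.2 at 0 h, 97.8, 99.6, 112.9 and 96.7 at 6 h and 58.4, 49.8, 59.2 and 58.2 at 72 h. All 6 h libraries were near 100 and the others ranged over 49.8 to 71.6, with 0 h and 72 h overlapping. Genes of the mucin family resemble each other, and how reads that fit several places were treated is not given in the sources used here.

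The remaining 4 loops of the 8 followed the same course at lower counts. Loop21288 on chromosome 11, with an end of the tetraspanin gene TSPAN32 in an anchor, gave 20.4 ± 5.7, 38 ± 9.2 and 18.5 ± 2.1 at 0 h, 6 h and 72 h. Loop15266 on chromosome 6 gave 18.0 ± 5.9, 36.5 ± 3.8 and 22.1 ± 2.1. Loop29138 on chromosome 16 gave 22.7 ± 1.3, 35.8 ± 7.9 and 18.1 ± 0.9. Loop17323 on chromosome 8 gave 19.6 ± 2.1, 33.2 ± 3.0 and 16.2 ± 1.7. None of the 8 was called different between 72 h and 0 h by edgeR, with adjusted p from 0.13 to 0.54.

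**Figure D3:**
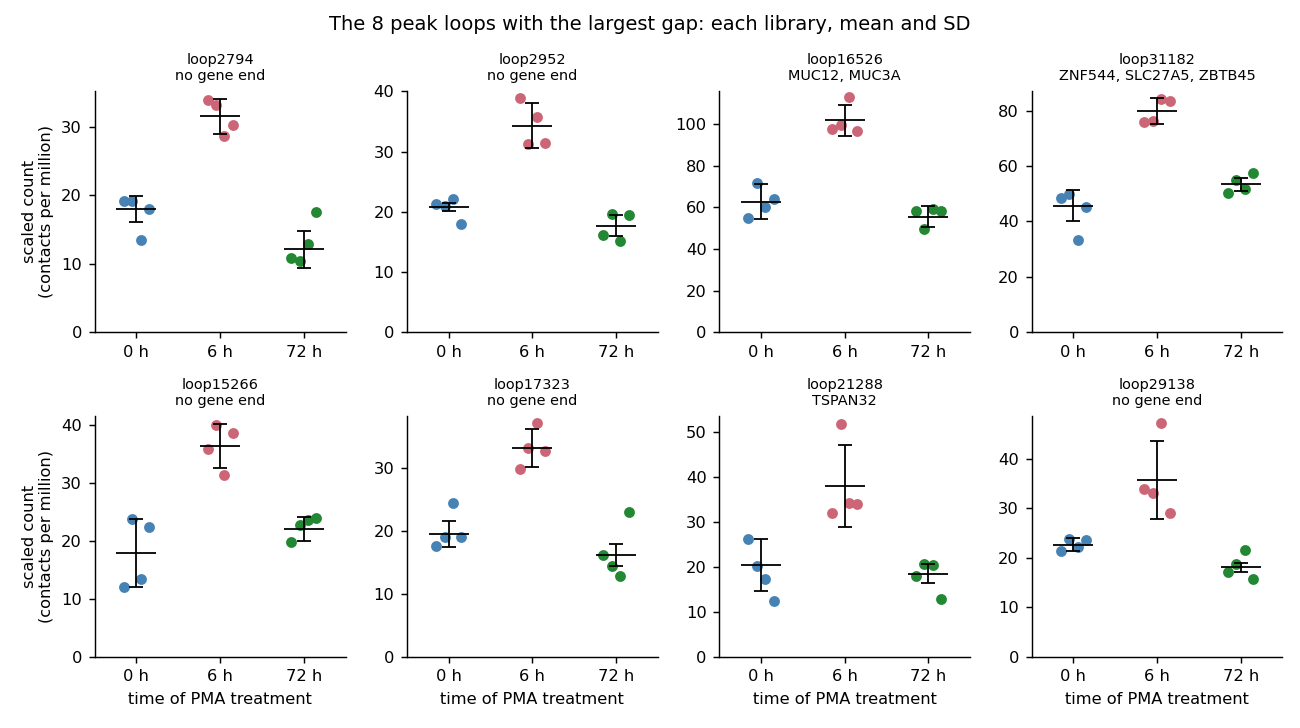
Scaled counts (y axis, contacts per 1000000 in kept loops, from 0) of the 8 peaks with the largest gap, 1 panel each, by time (x axis). Points are libraries in the order of replicates 1 to 4, long bars are means and whiskers SD (n = 3 at 0 h and 72 h, n = 4 at 6 h); in each panel the 4 red points of 6 h lie above the 8 others, with gaps of 1.22-fold to 1.49-fold.

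The peaks with the highest counts stood less far apart in proportion. Loop32349 on chromosome 22 gave 183 ± 1.7 at 0 h, 204 ± 5.9 at 6 h and 145 ± 12 at 72 h. Loop17011, 80 kb long, starts from an anchor with the starts of ATG9B and of ABCB8, a mitochondrial transporter, and gave 161 ± 0.69, 191 ± 17 and 130 ± 13. In both, 72 h was below 0 h, with log2 differences of -0.34 ± 0.1 (edgeR adjusted p = 0.0029) and -0.31 ± 0.1 (adjusted p = 0.01). Loop2774, with ends of the vasopressin receptor gene AVPR1B and of RHEX, a regulator of erythroid cell expansion, in an anchor, gave 154 ± 8.9, 202 ± 9.8 and 174 ± 13. Loop17011 and loop2774 were no longer peaks when libraries were scaled by TMM or DESeq2 size factors.

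Peaks sometimes shared an anchor. The anchor with the most peaks, chr7:135270001-135280000, held 3 among 5 kept loops, reaching 520 kb, 740 kb and 1130 kb to the same side. The shortest, loop16851, had 42.6, 41.1, 38 and 36.0 at 0 h, 42.9, 63.4, 55.8 and 66.5 at 6 h and 19.8, 11.4, 33.3 and 26.8 at 72 h. Its 72 h libraries all lay below its 0 h libraries (log2 difference -0.80 ± 0.18, edgeR adjusted p = 0.0002). The others, loop16852 and loop16853, gave 32.4 ± 4.6 and 18.8 ± 2.9 at 6 h, against 19.7 ± 3.0 and 9.18 ± 3.0 at 0 h and 17.4 ± 3.5 and 7.95 ± 1.2 at 72 h. Loop16851 was not a peak under TMM or DESeq2 scaling, and neither it nor loop16852 was one after the trend with length was removed.

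Of the 8 dips with the largest gap, 4 had a gene start in an anchor and 4 had no gene end. Loop15078 joins the start of CITED2 at chr6:139370001-139380000 to chr6:139990001-140000000, 620 kb away. Its counts were 42.6, 47.7, 49.1 and 51.8 at 0 h, 31.9, 31.2, 32.9 and 25.4 at 6 h and 52.1, 53.9, 50.6 and 59.2 at 72 h. The 6 h libraries reached at most 32.9, and 72 h overlapped 0 h. Loop20105 joins DNAJC1, a chaperone partner gene, at chr10:22000001-22010000 to the shared start of COMMD3 and its read-through with BMI1, a Polycomb gene, at chr10:22310001-22320000.

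Loop20105 had 73.1, 64.0, 67.5 and 67.6 at 0 h, 53.9, 43.9, 47.2 and 54.4 at 6 h and 88.1, 72.6, 64.5 and 76.7 at 72 h. The highest 6 h library was 1.18-fold below the lowest of the others, and 0 h and 72 h overlapped. Loop1467 links the chloride channel accessory genes CLCA2 at chr1:86420001-86430000 and CLCA1 at chr1:86500001-86510000. Its counts were 50.4, 61.1, 57.7 and 63.1 at 0 h, 40.9, 38.1, 32.9 and 38.7 at 6 h and 74.6, 84.0, 62.4 and 63.8 at 72 h. These 3 loops were not called different between 72 h and 0 h by edgeR (adjusted p = 0.45, 0.55 and 0.11).

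Loop16763, from the start of AHCYL2, a gene of the adenosylhomocysteinase family, gave 51.0 ± 2.8 at 0 h, 32.6 ± 4.2 at 6 h and 61.5 ± 6.6 at 72 h. Loop30901 on chromosome 19 had no gene end in its anchors and varied most at 0 h, with 36.2, 55.4, 66.3 and 66.4. Its 6 h libraries had 27.9, 30.3, 20 and 27.8 and its 72 h libraries 37.8, 40.4, 36.6 and 37.0. The 0 h and 72 h libraries overlapped only through replicate 1 of 0 h, and 72 h was called lower than 0 h (log2 difference -0.53 ± 0.15, edgeR adjusted p = 0.0041). Loop12182 and loop11858 on chromosome 5 and loop14025 on chromosome 6 went from 31.1 ± 5.7, 33.4 ± 2.9 and 30.1 ± 4.7 at 0 h to 19.1 ± 1.6, 21.9 ± 5.2 and 17.1 ± 2.7 at 6 h and 32.8 ± 5.9, 43.5 ± 4.5 and 29.5 ± 4.1 at 72 h.

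**Figure D4:**
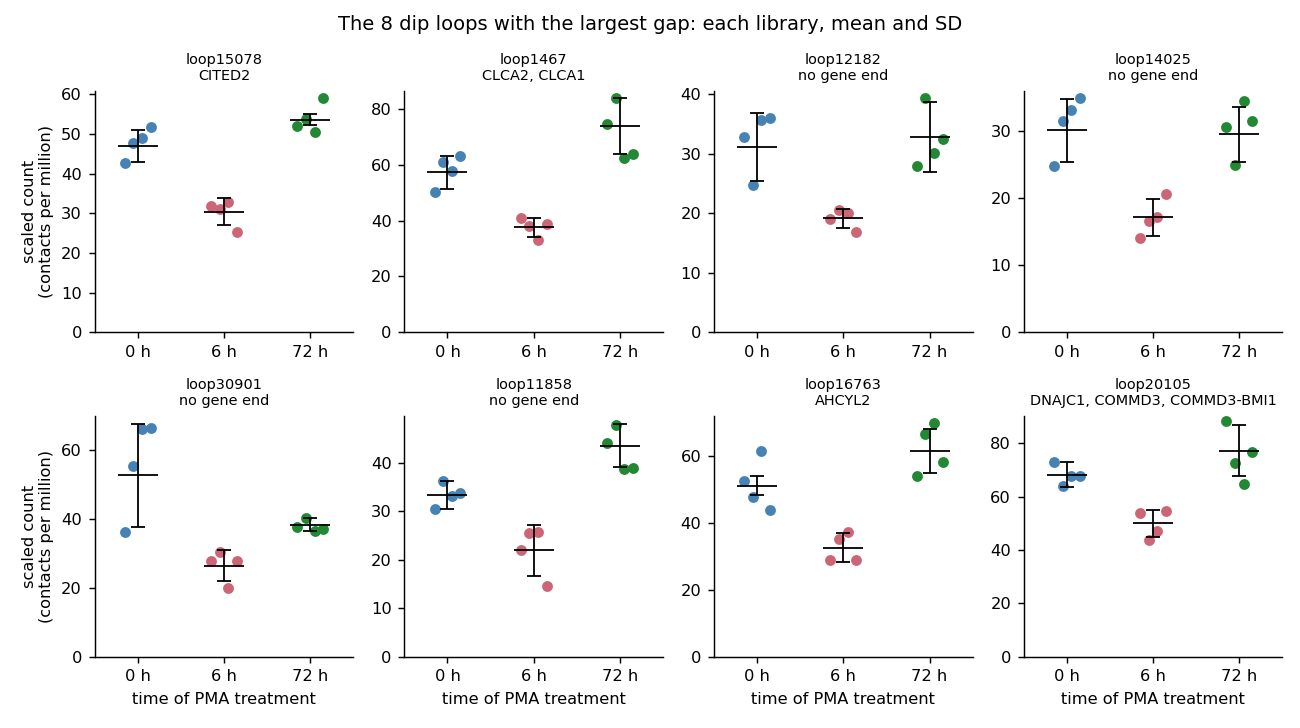
Scaled counts (y axis, contacts per 1000000 in kept loops, from 0) of the 8 dips with the largest gap among loops with a mean raw count of 20 or more, 1 panel each, by time (x axis); points are libraries in the order of replicates 1 to 4, long bars means and whiskers SD (n = 3 at 0 h and 72 h, n = 4 at 6 h). In each panel the 4 red points of 6 h lie below the 8 others, with gaps of 1.18-fold to 1.3-fold.

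Both anchors shared by more than 1 dip carried gene starts. From the BTG1 anchor, chr12:92140001-92150000, loop24271 and loop24272 reached 260 kb and 430 kb. Loop24271 had 41.9, 33.4, 51.5 and 36.0 at 0 h, 17.0, 23.4, 22.9 and 24.2 at 6 h and 42.2, 42.5, 32.3 and 27.7 at 72 h. Loop24272 had 37.6, 23.9, 43.0 and 32.7 at 0 h, 12, 21.5, 22.9 and 19.3 at 6 h and 42.2, 32.1, 42.0 and 35.1 at 72 h. In both, 0 h and 72 h overlapped. At chr3:133660001-133670000, the start of TF, which encodes transferrin, faces that of TOPBP1, a gene of DNA replication and repair. Loop7091 from there gave 45.3 ± 2.5, 28.4 ± 5.9 and 45.6 ± 3.6, and loop7092 gave 23.8 ± 5.3, 15.3 ± 1.4 and 24.4 ± 4.6. Loop7092 was a dip by a near tie, with a log2 gap of 0.0024. Its highest 6 h library and its lowest 0 h library were both near 17.2, at a mean raw count of 20.9.

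The dips with the highest counts changed by little. Loop13721, with the start of PTK7, a receptor pseudokinase, and an end of the kinesin gene KLC4 in an anchor, gave 215 ± 9.7 at 0 h, 180 ± 6.9 at 6 h and 201 ± 8.5 at 72 h. Loop13639, with an end of the spliceosome gene PPIL1, gave 193 ± 12, 159 ± 9.6 and 180 ± 7.4, and loop16948 on chromosome 7 gave 181 ± 12, 142 ± 13 and 186 ± 13. Loop13639 was no dip under TMM or DESeq2 scaling, and loop13721 was none after the trend with length was removed.

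Genes known to respond to PMA or to mark the cell types were placed on the loops from 6 lists. Of 135 kept loops with an end of any of 119 listed genes in an anchor, 2 were peaks and 1 was a dip, shares near the 1.59% and 0.601% of all kept loops. Loop17265 has an end, not the start, of the gene of EGR3, an immediate early transcription factor, in one anchor. Ends of BIN3 and CCAR2 lie in the other, 60 kb away. The counts of loop17265 were 48.3, 46.8, 49.1 and 46.2 at 0 h, 79.8, 72.2, 78.6 and 70.1 at 6 h and 50.3, 62.2, 63.5 and 53.6 at 72 h. The 6 h libraries reached at least 70.1, and 72 h lay between the other times without reaching either (log2 difference from 0 h 0.21 ± 0.14, edgeR adjusted p = 0.25). Another EGR3 loop of 60 kb, loop17269, was no member and rose throughout, with 68.4 ± 6.5 at 0 h, 89.1 ± 6.7 at 6 h and 121 ± 9.1 at 72 h.

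The peak at RELB, an NF-kB subunit, joins it over 250 kb to the start of MARK4, a microtubule-regulating kinase, and was weak, at 33.9 ± 1.5, 39.3 ± 4.0 and 28.2 ± 4.5. The dip at PHLDA1, loop24014, reaches 510 kb from the anchor with that start and an end of NAP1L1, a histone chaperone. Its counts were 50.4, 43.9, 50.3 and 48.4 at 0 h, 40.9, 27.3, 32.9 and 26.6 at 6 h and 50.3, 48.7, 42.0 and 48.1 at 72 h. Replicate 1 of 6 h came within 1.03-fold of the others, and the loop was no dip after the trend with length was removed. A shorter PHLDA1 loop of 40 kb, loop24028, ends in the neighbouring anchor from chr12:76020001, with an end but not the start of the gene. It went from 62.7 ± 2.8 at 0 h to 107 ± 13 at 6 h and stayed at 108 ± 8.0 at 72 h. That course was opposite to the dip's from 0 h to 6 h, but from another anchor. From the dip's own PHLDA1 anchor, loop23997, loop24020 and loop24025 had log2 differences of 0.14, 0.08 and -0.08 between 6 h and 0 h.

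All loops of listed genes were also read against the mean of 0 h and 72 h, where 3.32% of all kept loops were called higher and 2.11% lower. For immediate early genes, 2 of 30 loops were called, the EGR3 peak higher and the FOSB loop lower (-0.36 ± 0.09, edgeR adjusted p = 0.0097). For PKC and MAPK feedback genes, 3 of 34 were called higher (PRKCZ, PRKCQ and the shorter PHLDA1 loop) and 4 lower (DUSP10, SPRY4, DUSP4 and the PHLDA1 dip). Of these counts the rule itself fixes the direction of the EGR3 peak and the PHLDA1 dip, and no list was tested. In DUSP10 and SPRY4 the 6 h level was near that of 0 h and the call came with a rise by 72 h, from 51.0 ± 11 and 21.1 ± 3.4 at 0 h to 125 ± 7.2 and 47.1 ± 4.5. The called DUSP4 loop also rose by 72 h, with 23.7 ± 7.1 at 0 h, 19.9 ± 5.9 at 6 h and 42.5 ± 8.3 at 72 h. Among NF-kB targets, 0 of 24 loops were called higher and 1 lower (TNFAIP3, -0.44 ± 0.11). Among haematopoietic transcription factors, 1 of 33 was called higher (MYC, 0.52 ± 0.14) and 0 lower. That MYC loop had 43.5 ± 7.4 at 0 h, 51.4 ± 5.2 at 6 h and 27.4 ± 6.7 at 72 h, so the call came mostly with a fall by 72 h. Further loops of EGR3, DUSP10, DUSP4, PRKCQ, PHLDA1, TNFAIP3 and MYC were not called.

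No loop of the megakaryocyte list (6 loops) or the erythroid list (8 loops) was a member or was called in this contrast. The median log2 difference was 0.09 in the megakaryocyte list and -0.09 in the erythroid list, between -0.08 and -0.03 in the other lists, and 0 over all kept loops. These lists therefore sat near the middle of all loops at 6 h.

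Properties that the rule did not use are given beside those of all kept loops, with no test. An end of a protein-coding gene lay in an anchor in 39.7% of peaks and 40.9% of dips, beside 35.9% of kept loops, and a gene start in 24.5%, 28.5% and 20.4%. Both anchors held a gene end in 10.7% of peaks, 7.3% of dips and 6.14% of kept loops. The peaks touched 221 such genes and the dips 74. The share with a gene end rises with the mean count over all kept loops, from 26% at counts of 10 to 20 to 52.6% at 80 and over, and the median mean count was 30.8 in peaks, 42.1 in dips and 31.2 in kept loops.

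The median peak spanned 330 kb and the median dip 210 kb, beside 280 kb for kept loops. Loops of 100 kb or less made up 8.26% of peaks, 23.4% of dips and 14.5% of kept loops, and loops of 1 Mb or more 1.1%, 5.84% and 3.9%. The share of loops that were peaks rose from 0.468% at 50 kb or less to 2.22% at 400 to 800 kb and was 0.596% above 800 kb. The share that were dips was 0.936% at 50 kb or less, lowest at 400 to 800 kb with 0.319%, and 0.774% above 800 kb. Up to 800 kb, peaks were most frequent in the lengths where dips were least frequent. Mean count moves with length too, from a median of 100.8 at 50 kb or less to 14 above 800 kb, and its part in the result was not tested. Removing each library's trend with length left 313 peaks and 144 dips, of which 248 and 108 were members under the rule as stated.

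Across chromosomes, peaks made up 4.19% of kept loops on chromosome 18 (13 of 310), 3.6% on chromosome 16 (26 of 723), 3.58% on chromosome 22 (12 of 335) and 3.12% on chromosome 19 (20 of 642), but 0.8% on chromosome X (6 of 750). Dips made up 0.966% on chromosome 6 (15 of 1552) and 0.119% on chromosome 17 (1 of 837). On chromosome 22 there were 0 dips of 335 loops, which allows a share of up to 0.896%. The median log2 difference of 6 h from the mean of 0 h and 72 h over all loops of a chromosome was 0.06 on chromosomes 16 and 19, 0.05 on 17 and 22, 0.01 on 18 and -0.05 on 3 and 4, so members on chromosomes 16, 19 and 22 lay where all loops leaned upward at 6 h.

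**Figure D5:**
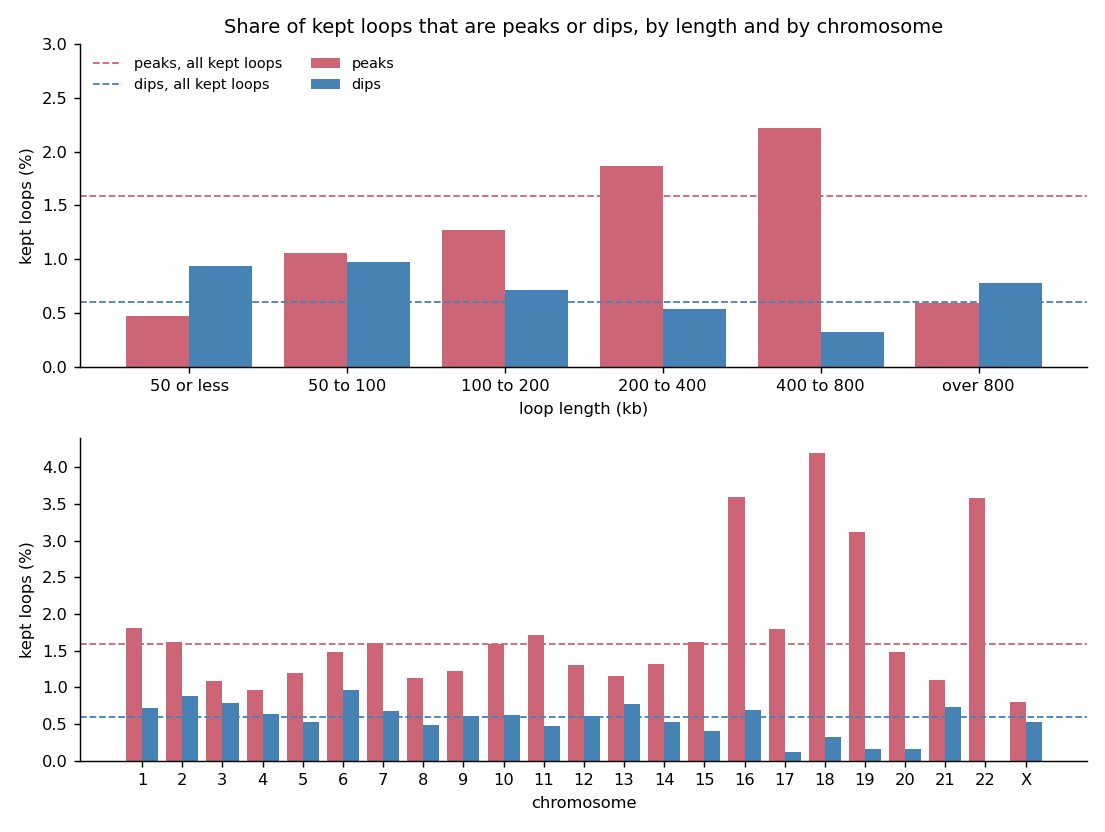
Share of kept loops (y axis, %) that were peaks (red) or dips (blue), by loop length in kb (upper panel) and by chromosome (lower panel); dashed lines are the shares over all kept loops, 1.59% and 0.601%. Peaks are most frequent at 400 to 800 kb (2.22%) and on chromosomes 16, 18, 19 and 22 (3.12% to 4.19%), and dips at 100 kb or less (0.936% and 0.978%).

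Loops that share an anchor with a member but are no members were read in the same contrast. An anchor was shared with another kept loop in 75.8% of peaks, 80.3% of dips and 78.8% of kept loops. The 604 such neighbours of peaks had a median log2 difference at 6 h of 0.06, and 61.8% of them were above 0, beside 49.9% of all kept loops. Of them 34 were called higher (5.63%, against 3.32% of all kept loops) and 11 lower (1.82%). Neighbours of peaks that were peaks themselves numbered 29 of 639 (4.54%, against 1.59% of kept loops), and neighbours of dips that were dips 4 of 292 (1.37%, against 0.601%), with no test of either. The 282 neighbours of dips had a median of -0.02 with 44% above 0, and 5 were called higher and 4 lower (1.42%, against 2.11%).

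The authors' deposited table holds log2 values of 6 h and a class for each loop, made from the same contacts. Of the peaks it classes 14 as gained (3.86%), 5 as lost (1.38%) and 344 as static (94.8%), and of the dips 2 as gained (1.46%), 5 as lost (3.65%) and 130 as static (94.9%), in the authors' deposited table. Over all kept loops it classes 4.39% as gained, 2.21% as lost and 93.4% as static, so the static share of the members was near that of all loops. Its 6 h value, present for 317 peaks and 124 dips, was above 0 in each of these peaks and below 0 in each of these dips, with medians of 0.10 and -0.13 in the authors' deposited table. The authors' adjusted p holds the same values for 6 h and 72 h, so it is no test of 6 h alone. It was under 0.05 in 92 of 311 peaks (29.6%) and 38 of 120 dips (31.7%) with a value, beside 14.8% of kept loops. The rule selected members on the same contacts, so these signs and shares are a description only.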

How the data were processed

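The deposited table lists loops with a raw count of contacts per technical replicate, as the file headers name them. For each loop the authors also gave a log2 change at 6 h and at 72 h, a p-value after adjustment and a class. Anchor positions, deposited as starts counted from 0, are given counted from 1. The submitters' processing notes name Juicer 1.5.6, DESeq2 and the build hg38; how loops were called and counted is not given in the sources used here.

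The members and the gene lists were chosen with earlier results of these data known. Technical replicates were summed into 12 libraries, loops with a mean raw count of 10 or more were kept, and libraries were scaled to 1000000 contacts. The model was edgeR 4.0.16 under R 4.3.3 (TMM, quasi-likelihood test, Benjamini-Hochberg over all kept loops, threshold 0.05), with all groups in 1 fit. For log2 changes the prior count was 2, and an SE is the log2 change over the square root of F. The fit was tested on simulated counts. DESeq2 1.42.0, other scalings, filters, a loess of span 0.3 on loop length and left-out libraries were alternatives. Loops were named by rule: among members with a mean count of 20 or more the 8 largest gaps of each kind, the 3 highest counts of each kind, members at listed genes, members of the anchors shared most, and loops next to the threshold. The 6 lists hold 119 genes. Genes are the protein-coding genes of RefSeq GRCh38.p14 with an end in an anchor of 10 kb. Promoters with a start inside an anchor were searched for motifs, in place of those of all genes with an end there.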

Additional observations from a re-analysis of the deposited data

Results flagged for a closer look

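In loop21288, the peak at TSPAN32 on chromosome 11, replicate 2 of 6 h had a scaled count of 51.7, while the other 3 libraries of 6 h lay between 31.9 and 34.3. Its distance from the nearest library was 0.88 of the range of the 4, above Dixon's 95% critical value for 4 samples. Among the named loops, 64 groups of 4 libraries were examined and 1 such value was found, where 3.2 would be expected.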

How the results depend on the processing

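The rule gave 307 peaks and 153 dips with TMM scaling (294 and 128 of them members) and 311 and 154 with DESeq2 size factors. Asking for a gap of at least 1.2-fold left 33 peaks and 9 dips. Summing replicates 3 and 4 at 0 h and 72 h, chosen after seeing the data, gave 595 peaks and 252 dips, and summing them at every time gave 995 and 423, where 271.4 of each would be expected. Leaving out 1 library gave 398 to 629 peaks and 161 to 297 dips, since fewer libraries must agree. Libraries of different times with the same replicate number were weakly and positively related (correlations of deviations from 0.02 to 0.12). Unmatched libraries were not compared, so whether replicate numbers pair libraries was not settled. A replicate block, which orders times only within a replicate number, gave 1038 peaks and 493 dips, where 281.4 would be expected. With the block in edgeR, 50 peaks and 18 dips were called between 72 h and 0 h. Without it these were 46 and 13, and with replicates 3 and 4 of 72 h summed they were 43 and 11. The 46 became 28 with DESeq2, 70 with the trend with length removed, 10 in replicates 3 and 4 alone and 25 at a threshold of 0.01. The 13 became 6 with DESeq2, 8 in replicates 1 and 2 alone, 7 in replicates 3 and 4 alone and 6 at 0.01. Leaving out 1 library gave 36 to 49 peaks and 6 to 16 dips called. Fits on a pair of replicates hold fewer libraries, and for the other changes the cause was not tested. A gene end lay in an anchor of 40% of members and within 10 kb of one in 66.6%. Of 480 alternative values of single named loops, 0 reversed and 1 moved by more than the spread. Most of these values leave out 1 library, where the rule fixes the direction, so the lack of reversals there is no support. In counts under 20 the depth limits every single value.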

Other observations

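Zinc finger genes, taken after values were seen as those with names of the ZNF, ZSCAN, ZKSCAN or ZFP series, had an end in an anchor of 167 kept loops (0.733%). Of these 7 were peaks, 1.93% of all peaks, and 0 were dips, which allows up to 2.19% of dips. The genes at these peaks were ZNF544 and ZNF584 on chromosome 19, ZNF318 on chromosome 6, ZNF777 on chromosome 7, ZNF843 on chromosome 16, ZNF341 on chromosome 20 and ZNF674 on chromosome X. No test was made of this count.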
